A study of Mus musculus with 6 samples.

Results

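The Wnt module is the set of genes on the array that encode the secreted Wnt ligands, their frizzled receptors and a fixed group of partners: the co-receptors Lrp5, Lrp6, Ror1 and Ror2, the scaffolds Axin1 and Axin2, β-catenin (Ctnnb1) and the transcription factors Lef1 and Tcf7. The rule picks members by gene name and uses no measured value, and it gave 50 probes for 38 genes out of 55681 probes carrying 34797 names. Of these genes, 19 encode Wnt ligands, 10 frizzleds, 4 co-receptors, 3 axins or β-catenin and 2 TCF/LEF factors. RNA was profiled on a 1-colour Agilent mouse array with 60-base probes in 3 groups of immortalized murine embryonic fibroblasts (MEF), with 2 arrays per group: wild type (WT, strain W4), TIA1 knock out (TIA1 KO, strain BALB/c) and TIAR knock out (TIAR KO, strain C57BL/6). TIA1 and TIAR, the latter encoded by Tial1, are related RNA-binding proteins that act in splicing and translation. Each group is a cell line of its own on its own strain, and all carry the immortalization, so the genotype cannot be told apart from the strain or the line. The study's text calls the paired arrays of a group independent biological samples, and whether they were separate cultures of 1 line is not said, so p-values measure the spread between these arrays only.

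Wnt proteins are secreted lipid-modified ligands that bind the extracellular domain of frizzled receptors. With the co-receptors Lrp5 or Lrp6 they stabilize β-catenin, which the axins otherwise help to destroy, and β-catenin then acts with TCF/LEF factors on target genes. Other ligands, Wnt5a being the best known, signal through Ror receptors and frizzleds without β-catenin and are known in mesenchymal cells for guiding polarity and migration.

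Values are normalized log2 intensities, in which 1 unit is a 2-fold difference. A gene was read from its brightest probe over the arrays, and an array was taken to detect a probe, well above background, where the scanner software flagged at least 50% of its spots that way. A difference was called where limma gave an adjusted p under 0.05 over all probes together with a fold over 2, and only called differences are said to have risen or fallen. The targeted genes were read first. Tia1 gave 10.72 and 8.54 in WT and 7.87 and 8.44 in TIA1 KO, and its 1.47 lower mean in TIA1 KO was not called (adjusted p = 0.29). Of its other probes, one differed by -1.62 (adjusted p = 0.12) and one by 0.87 (adjusted p = 0.15), neither called. Tial1 fell by 1.58 in TIAR KO on one probe (from 11.71 and 11.09 in WT to 10.00 and 9.65, adjusted p = 0.025), while its brightest probe lacked a WT 1 value and was not called (adjusted p = 0.20). Both targets thus stayed well above background on at least 1 array of their knock out, and whether these lie in the deleted parts is not given in the sources used here. Gapdh differed from WT by -0.04 (TIA1 KO) and 0.09 (TIAR KO) on its brightest probe.

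The module rose far more often than it fell in both knock outs. In TIA1 KO against WT, 14 of 50 member probes (13 genes) rose and 0 fell, against 3.54% of all probes called on the array, of which 2.18% rose and 1.36% fell. In TIAR KO against WT, 12 probes (10 genes) rose and 1 fell, against 5.76% of all probes (3.39% up and 2.37% down). TIAR KO lay above TIA1 KO at 3 member probes and below it at 6, together 8 genes, where 3.35% of all probes were called (1.72% higher and 1.63% lower). Detection differed too: 15 of 50 member probes and 23994 of all 55681 probes were well above background on no array. The shares over all probes are thus not over equally detected probes. The median log2 difference over member probes was 0.43 in TIA1 KO and 0.30 in TIAR KO, beside -0.09 and -0.02 over all probes. Read gene by gene, Wnt5a, Wnt9a, Fzd1, Fzd2, Fzd4, Fzd6, Ror2 and Lef1 were called up in both knock outs, 8 genes in all, no gene fell in both, and Wnt10b moved in opposite directions. Both comparisons share the WT arrays, so the overlap is no independent repeat.

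Those counts depend on the scaling and on single arrays in the comparisons with TIA1 KO. Scaling every array to a common median moved the median of all probes in TIA1 KO to -0.68. It gave 9 member probes up and 3 down, where 16041 of all 55681 probes were called, 1857 of them up. With the scanner software's processed signal limma called 0 member probes and 0 of all 55681 probes in TIA1 KO against WT. There 30 member probes and 27765 of all probes had an unadjusted p under 0.05. Without WT 1 or WT 2 limma lost its calls across the whole array, so that loss was not particular to the module. The TIA1 KO arrays had the highest median raw signal, 458 and 218 against 119 to 152 on the other arrays, the highest local background, 89.5 and 58 against 42 to 52, and the fewest probes well above background, 16000 and 19920 against 23531 to 26254, and they lay in another row of the slide. The part of these differences in the results was not tested, and the row cannot be told apart from TIA1 loss.

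**Figure D1:**
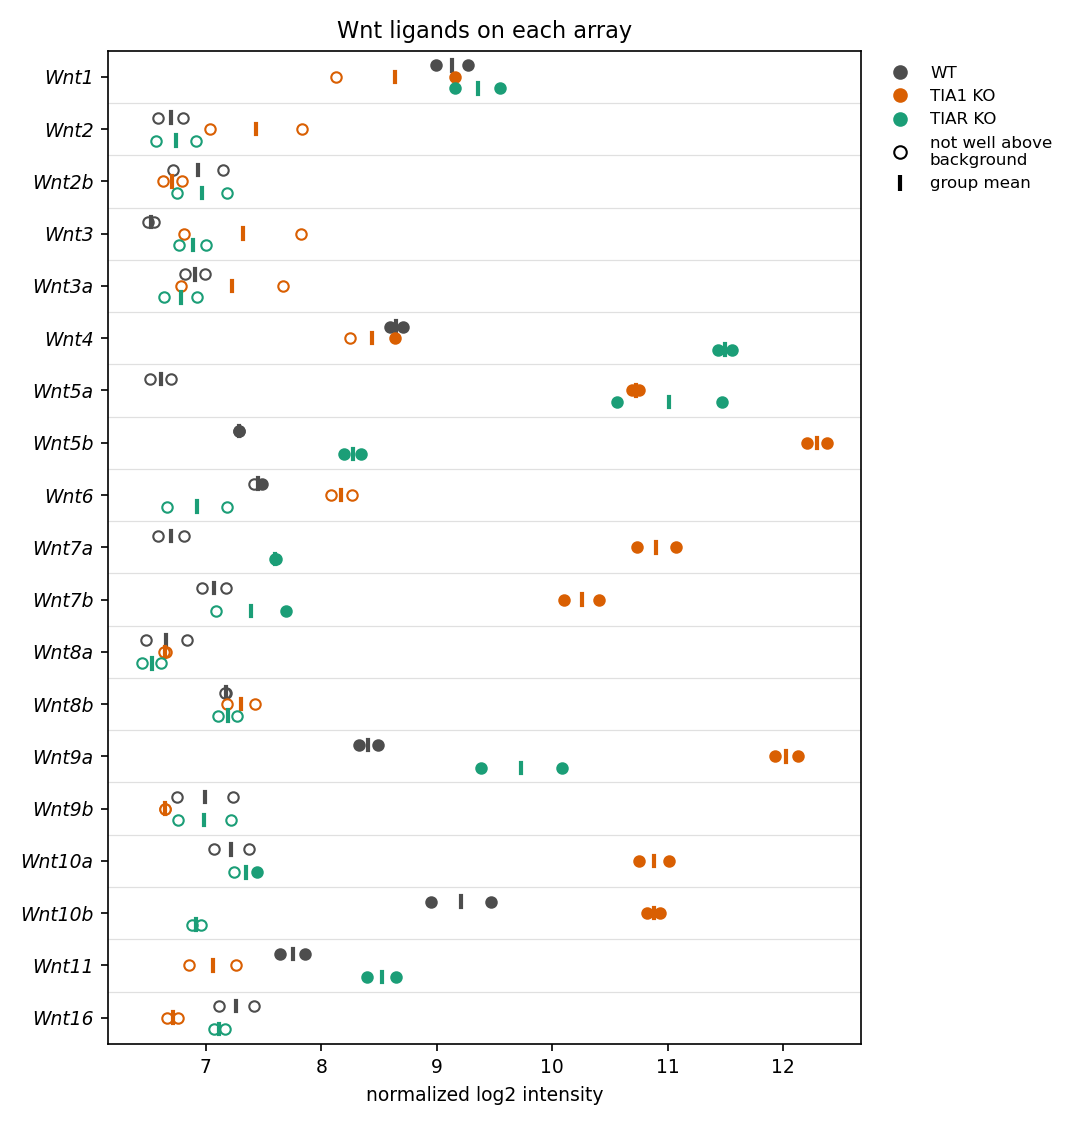
Normalized log2 intensity (x axis) of the 19 Wnt ligand genes (y axis, brightest probe) on each array, with filled points well above background, open points not, and a tick at each group's mean. Wnt5b, Wnt7a, Wnt7b and Wnt10a stand apart in TIA1 KO, Wnt4 in TIAR KO and Wnt5a in both knock outs.

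Ligands were called in all 3 comparisons. On both arrays of a group, 5 of 19 ligand genes were well above background in WT and 7 in either knock out. In TIA1 KO 7 ligands rose (Wnt5a, Wnt5b, Wnt7a, Wnt7b, Wnt9a, Wnt10a and Wnt10b) and 0 fell. In TIAR KO 3 rose (Wnt4, Wnt5a and Wnt9a) and 1, Wnt10b, fell. The first 30 bases of the probes for Wnt5a, Wnt5b, Wnt10b and Wnt4 are shown here in lower case because these bases are what each value measured. Their positions are in mm9, the build named in the files. No stretch longer than 14 bases was common to the probes of any pair of module genes. The second Wnt4 probe covers a span of 569 bases on the genome, so it crosses at least one intron.
Wnt5a, chr14:29336664-29336723, plus strand: cctaacccagaggttaccagcctggttttg
Wnt5b, chr6:119382550-119382609, minus strand: gactgtcatctctgcccacatgtacagcgt
Wnt10b, chr15:98602209-98602268, minus strand: gggtgggaatggataatttattttactgag
Wnt4, brightest probe, chr4:136855342-136855401, plus strand: tatgaggctccttggcattgtgacatcccc
Wnt4, second probe, chr4:136851690-136852258, plus strand: tcttcacaacaacgaggctggcaggaaggc

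Wnt5a, the ligand most tied to β-catenin-independent signalling, rose in both knock outs. Its level was 6.70 and 6.52 on the WT arrays, 10.75 and 10.69 in TIA1 KO and 11.47 and 10.56 in TIAR KO. The WT arrays were both not well above background and all knock out arrays lay over 3 units higher, so the rise is given as a bound. It was at least 14.3-fold in TIA1 KO (log2 difference 4.11 ± 0.16 SE, adjusted p = 0.0047) and at least 17.5-fold in TIAR KO (4.40 ± 0.32, adjusted p = 0.0018). Such a bound sets the brighter group's mean against the higher of the array's lowest signal among probes well above background and the dim probe's own signal. TIAR KO differed from TIA1 KO by 0.29 ± 0.35, within the spread between arrays (adjusted p = 0.62).

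Wnt5b, the paralogue of Wnt5a, rose in TIA1 KO. It read 7.29 and 7.29 on the WT arrays (well above background on the latter array), 12.20 and 12.37 on those of TIA1 KO and 8.20 and 8.35 on those of TIAR KO. The 3 groups did not overlap. The rise in TIA1 KO was 4.998 ± 0.16 (adjusted p = 0.0036), while TIAR KO was 0.98 ± 0.14 above WT (adjusted p = 0.018), under the fold threshold. In the direct comparison TIAR KO minus TIA1 KO was -4.02 ± 0.17 (adjusted p = 0.0067).

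Wnt7a, Wnt7b and Wnt10a, which commonly act through β-catenin, rose in TIA1 KO and were near background in WT. Wnt7a measured 6.59 and 6.82 on the WT arrays, 11.07 and 10.73 on those of TIA1 KO and 7.61 and 7.60 on those of TIAR KO. Its rise in TIA1 KO was at least 15.0-fold (4.20 ± 0.20, adjusted p = 0.0059), and in TIAR KO it was at least 1.52-fold higher and not called (0.90 ± 0.15, adjusted p = 0.029). Wnt7b went from 7.17 and 6.97 in WT to 10.10 and 10.41 in TIA1 KO, at least 9.04-fold (3.18 ± 0.19, adjusted p = 0.0090), with 7.09 and 7.70 in TIAR KO. One TIAR KO array lay between the WT values and the other above them. Wnt10a stood at 7.37 and 7.07 on the WT arrays, 11.01 and 10.75 on those of TIA1 KO and 7.25 and 7.44 on those of TIAR KO. Only the TIA1 KO arrays stood out, with a rise of at least 12.6-fold (3.66 ± 0.20, adjusted p = 0.0076). Against TIA1 KO, TIAR KO was lower for all 3 genes, by -3.30 ± 0.19 for Wnt7a (adjusted p = 0.0094), -2.86 ± 0.28 for Wnt7b (adjusted p = 0.024) and -3.54 ± 0.18 for Wnt10a (adjusted p = 0.0083).

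Wnt9a, a ligand known from skeletal and joint development, rose in both knock outs with TIA1 KO highest. Its values were 8.49 and 8.33 on the WT arrays, 11.93 and 12.13 on those of TIA1 KO and 10.08 and 9.39 on those of TIAR KO. All arrays were well above background and the groups did not overlap. The rise was 3.62 ± 0.17 in TIA1 KO (adjusted p = 0.0058) and 1.32 ± 0.26 in TIAR KO (adjusted p = 0.043), and TIAR KO lay below TIA1 KO (-2.29 ± 0.29, adjusted p = 0.040). The difference in TIAR KO was called in 7 of 16 alternatives, and among those that lost it were the fits without WT 1 (adjusted p = 0.11), WT 2 (0.13) or TIAR KO 1 (0.087).

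Wnt10b, a ligand known for holding back adipocyte formation, moved in opposite directions. It gave 9.47 and 8.95 on the WT arrays, 10.82 and 10.93 on those of TIA1 KO and 6.96 and 6.88 on those of TIAR KO, where neither array was well above background. The rise in TIA1 KO was 1.67 ± 0.23 with an adjusted p of 0.047, close to the threshold, and it was called in 7 of 16 alternatives. It was lost with common median scaling, at 0.72 (adjusted p = 0.24), and without TIA1 KO 1 (adjusted p = 0.054), among others. The fall in TIAR KO was at least 4.37-fold (-2.29 ± 0.21, adjusted p = 0.0039). The direct difference between the knock outs was at least 13.9-fold, with TIAR KO lower (-3.96 ± 0.16, adjusted p = 0.0062).

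Wnt4, a ligand with roles in kidney and gonad formation, was the ligand that rose in TIAR KO without being called in TIA1 KO. Its brightest probe read 8.71 and 8.60 on the WT arrays, 8.25 and 8.64 on those of TIA1 KO and 11.43 and 11.56 on those of TIAR KO. WT and TIA1 KO overlapped (-0.21 ± 0.20, adjusted p = 0.52), and both TIAR KO arrays lay well clear. The rise was 2.84 ± 0.15 against WT (adjusted p = 0.00068) and 3.05 ± 0.20 against TIA1 KO (adjusted p = 0.012). The second probe, in another part of the gene, gave a rise of 2.16 ± 0.17 against WT (adjusted p = 0.0022). Against TIA1 KO, where neither array of this probe was well above background, it was at least 4.59-fold (2.52 ± 0.28, adjusted p = 0.033).

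The other 11 ligand genes were called in no comparison. Of these, 8 (Wnt2, Wnt2b, Wnt3, Wnt3a, Wnt8a, Wnt8b, Wnt9b and Wnt16) had a brightest probe that was not well above background on any array, with values between 6.45 and 7.83, so for these probes only an upper limit on the signal was obtained. The second Wnt8b probe was well above background on 1 array, TIA1 KO 1, at 9.28, while the other TIA1 KO array gave 7.04 (log2 difference from WT 1.63 ± 0.79, adjusted p = 0.26). Across the 11 genes the log2 difference ranged from -0.69 to 0.79 in TIA1 KO and from -0.53 to 0.77 in TIAR KO. Wnt11, which directs cell movements in the embryo, came nearest to a call in the direct comparison, with TIAR KO at least 1.84-fold above TIA1 KO, where neither array was well above background (1.46 ± 0.22, adjusted p = 0.056). Its values were 7.86 and 7.65 on the WT arrays, 6.86 and 7.26 on those of TIA1 KO and 8.65 and 8.40 on those of TIAR KO. Wnt1 had 2 probes of opposite sign in TIA1 KO, neither called.

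**Figure D2:**
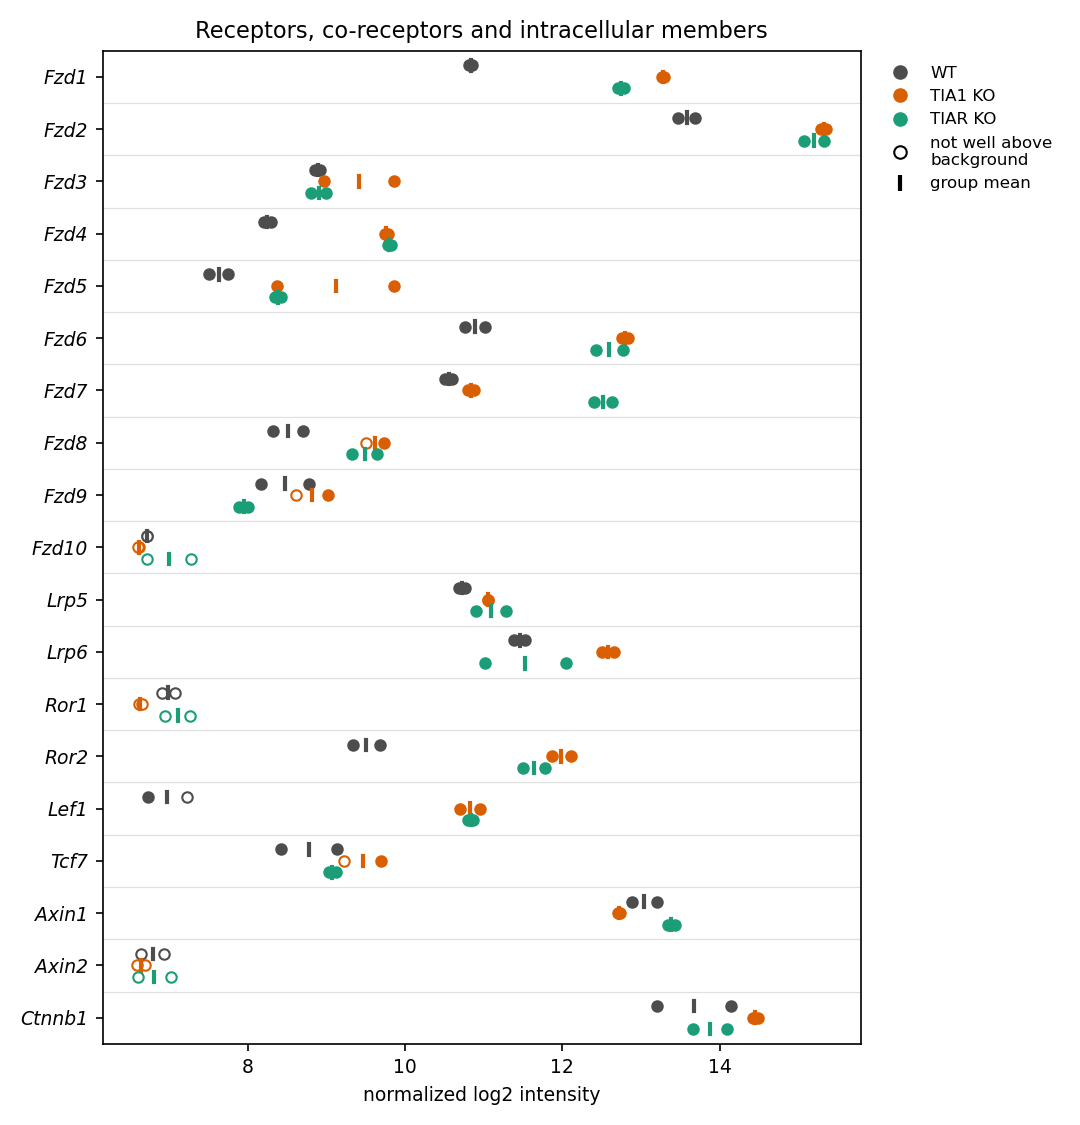
Normalized log2 intensity (x axis) of frizzled, co-receptor, TCF/LEF, axin and β-catenin genes (y axis, brightest probe) on each array, with filled points well above background, open points not, and a tick at each group's mean. Fzd1, Fzd2, Fzd4, Fzd6, Ror2 and Lef1 show both knock outs above WT, while Axin2 lies between 6.59 and 7.02 in all groups.

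Frizzleds were broadly present: on both arrays of a group, WT and TIAR KO had 9 of 10 genes well above background and TIA1 KO had 7. Fzd10 was not so on any array. In TIA1 KO 4 frizzleds rose (Fzd1, Fzd2, Fzd4 and Fzd6) and 0 fell, and in TIAR KO the same 4 and Fzd7 rose and 0 fell. The 4 genes shared by both lists differed between the knock outs by -0.53 to 0.04, and none was called in that direct comparison. For Fzd2 and Fzd7 the array carries 2 probes each, and their first 30 bases are given because the paired probes read differently.
Fzd2, brightest probe, chr11:102467613-102467672, plus strand: tcacagtctacatgatcaaatacctcatga
Fzd2, second probe, chr11:102469045-102469104, plus strand: cgtgacattctatatcataagatattgata
Fzd7, brightest probe, chr1:59543192-59543251, plus strand: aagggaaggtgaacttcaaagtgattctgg
Fzd7, second probe, chr1:59541367-59541426, plus strand: agccccgactttacagtcttcatgatcaag

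Fzd1 had the largest rise of the frizzleds in TIA1 KO. It read 10.81 and 10.85 on the WT arrays, 13.29 and 13.26 on those of TIA1 KO and 12.71 and 12.79 on those of TIAR KO, so arrays of a group lay within 0.1 of each other. The rises were 2.44 ± 0.15 (adjusted p = 0.0088) and 1.92 ± 0.14 (adjusted p = 0.0019). Fzd6, known from hair and tissue polarity, went from 10.76 and 11.02 in WT to 12.76 and 12.83 in TIA1 KO (1.90 ± 0.17, adjusted p = 0.021) and 12.42 and 12.77 in TIAR KO (1.71 ± 0.19, adjusted p = 0.0074). Fzd4, which also serves as the Norrin receptor in retinal vessels, gave 8.20 and 8.29 on the WT arrays, 9.75 and 9.78 on those of TIA1 KO and 9.78 and 9.82 on those of TIAR KO. The knock outs overlapped for Fzd4, with rises of 1.52 ± 0.15 (adjusted p = 0.025) and 1.55 ± 0.14 (adjusted p = 0.0037). In TIA1 KO this gene was called in 8 of 16 alternatives, and lost its call in the authors' table (1.25, adjusted p = 0.085), without loess (1.24, adjusted p = 0.074) and, by limma, without WT 1 (1.47, adjusted p = 0.31) or WT 2 (1.56, adjusted p = 0.30). With common median scaling all 4 kept their direction in TIA1 KO but lost the call, at 0.89 for Fzd1, 0.16 for Fzd2, 0.61 for Fzd4 and 0.37 for Fzd6, against the median of all probes at -0.68.

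Fzd2 and Fzd7 depended on the probe. The brightest Fzd2 probe rose from 13.47 and 13.69 in WT to 15.36 and 15.29 in TIA1 KO (1.74 ± 0.17, adjusted p = 0.023) and 15.33 and 15.07 in TIAR KO (1.62 ± 0.17, adjusted p = 0.0063). Its second probe, which reads a position further along the gene, gave 8.72 and 8.61 on the WT arrays, 7.85 and 8.09 on those of TIA1 KO and 7.91 and 8.53 on those of TIAR KO, with differences of -0.70 and -0.45 that were not called. The Fzd2 probes thus disagreed in sign. Fzd7 measured 10.60 and 10.51 on the WT arrays, 10.88 and 10.79 on those of TIA1 KO and 12.64 and 12.40 on those of TIAR KO on its brightest probe. It rose in TIAR KO by 1.96 ± 0.16 (adjusted p = 0.0026) and lay 1.68 ± 0.17 above TIA1 KO (adjusted p = 0.027), while TIA1 KO was 0.28 ± 0.15 above WT (adjusted p = 0.29). Its second probe had the same sign in TIAR KO but no call (0.72 ± 0.24, adjusted p = 0.18).

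Fzd3, Fzd5, Fzd8, Fzd9 and Fzd10 were called in no comparison, with differences from -0.11 to 1.49 in TIA1 KO and -0.52 to 0.98 in TIAR KO. Fzd8 came nearest in TIA1 KO, with values of 8.31 and 8.70 on the WT arrays, 9.51 and 9.73 on those of TIA1 KO and 9.33 and 9.65 on those of TIAR KO (adjusted p = 0.079 in TIA1 KO). Its WT arrays were below all 4 knock out arrays. Fzd5 differed by 1.49 ± 0.54 in TIA1 KO on 1 probe and by -0.52 ± 0.25 on the other, and the arrays of TIA1 KO were themselves 9.86 and 8.37 on the former.

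Among the co-receptors, Ror2, the tyrosine kinase receptor for Wnt5a, rose in both knock outs. It stood at 9.34 and 9.68 on the WT arrays, 11.87 and 12.10 on those of TIA1 KO and 11.50 and 11.78 on those of TIAR KO. Every knock out array was above both WT arrays, by 2.48 ± 0.20 in TIA1 KO (adjusted p = 0.017) and 2.13 ± 0.19 in TIAR KO (adjusted p = 0.0037). With common median scaling the TIA1 KO difference was 1.08 and lost its call (adjusted p = 0.076). Its relative Ror1 was not well above background on any array, at 6.61 to 7.26. Lrp5 differed by 0.33 ± 0.15 and 0.37 ± 0.18, neither called. Lrp6 gave 11.53 and 11.39 on the WT arrays, 12.66 and 12.51 on those of TIA1 KO and 12.05 and 11.01 on those of TIAR KO. Its difference of 1.13 ± 0.16 in TIA1 KO just missed the threshold (adjusted p = 0.051), and its second probe was lower instead (-0.41 ± 0.17, adjusted p = 0.20).

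Lef1, a TCF/LEF factor that β-catenin can use to switch genes on, had the largest rise among the module's genes other than ligands. Both of its probes are shown, since they target separate parts of the transcript. The second one spans 18162 bases of mm9 and so crosses at least one intron.
Lef1, brightest probe, chr3:130926200-130926259, plus strand: actgcaagcgccgacttccaaaaagaaagc
Lef1, second probe, chr3:130907851-130926012, plus strand: gtacaggtcccagaatgacagctgcctaca

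On its brightest probe Lef1 read 7.22 and 6.72 on the WT arrays, 10.69 and 10.95 on those of TIA1 KO and 10.80 and 10.86 on those of TIAR KO. The knock outs overlapped each other and lay over 3 units above WT, where 1 of 2 arrays was well above background. The rise was 3.85 ± 0.24 in TIA1 KO (adjusted p = 0.0096) and 3.86 ± 0.21 in TIAR KO (adjusted p = 0.00074). On the second probe it was at least 5.50-fold and at least 8.13-fold (2.68 ± 0.15 and 3.24 ± 0.16, both called). Tcf7, its close relative, measured 8.42 and 9.14 on the WT arrays, 9.23 and 9.70 on those of TIA1 KO and 9.12 and 9.03 on those of TIAR KO. WT and TIAR KO overlapped, and neither difference was called (0.68 ± 0.33, adjusted p = 0.25, and 0.30 ± 0.26, adjusted p = 0.63).

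Axin2, a feedback scaffold widely used as a readout of β-catenin signalling, was not well above background on any array with either probe. Its brightest probe gave 6.65 and 6.93 on the WT arrays, 6.69 and 6.59 on those of TIA1 KO and 6.60 and 7.02 on those of TIAR KO. The groups overlapped, at -0.15 ± 0.18 (adjusted p = 0.60) and 0.02 ± 0.21 (adjusted p = 0.98). Ctnnb1, β-catenin itself, read 14.15 and 13.21 on the WT arrays, 14.49 and 14.43 on those of TIA1 KO and 14.10 and 13.67 on those of TIAR KO. Its WT arrays differed by almost 1 unit, and neither 0.78 ± 0.35 in TIA1 KO (adjusted p = 0.24) nor 0.20 ± 0.34 in TIAR KO (adjusted p = 0.82) was called. With common median scaling the sign for Ctnnb1 turned in both, to -0.82 and -0.26. Axin1, the constitutive scaffold, differed by -0.33 ± 0.18 and 0.34 ± 0.17, neither called. The array measures RNA only, and β-catenin is controlled mainly through protein stability.

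**Figure D3:**
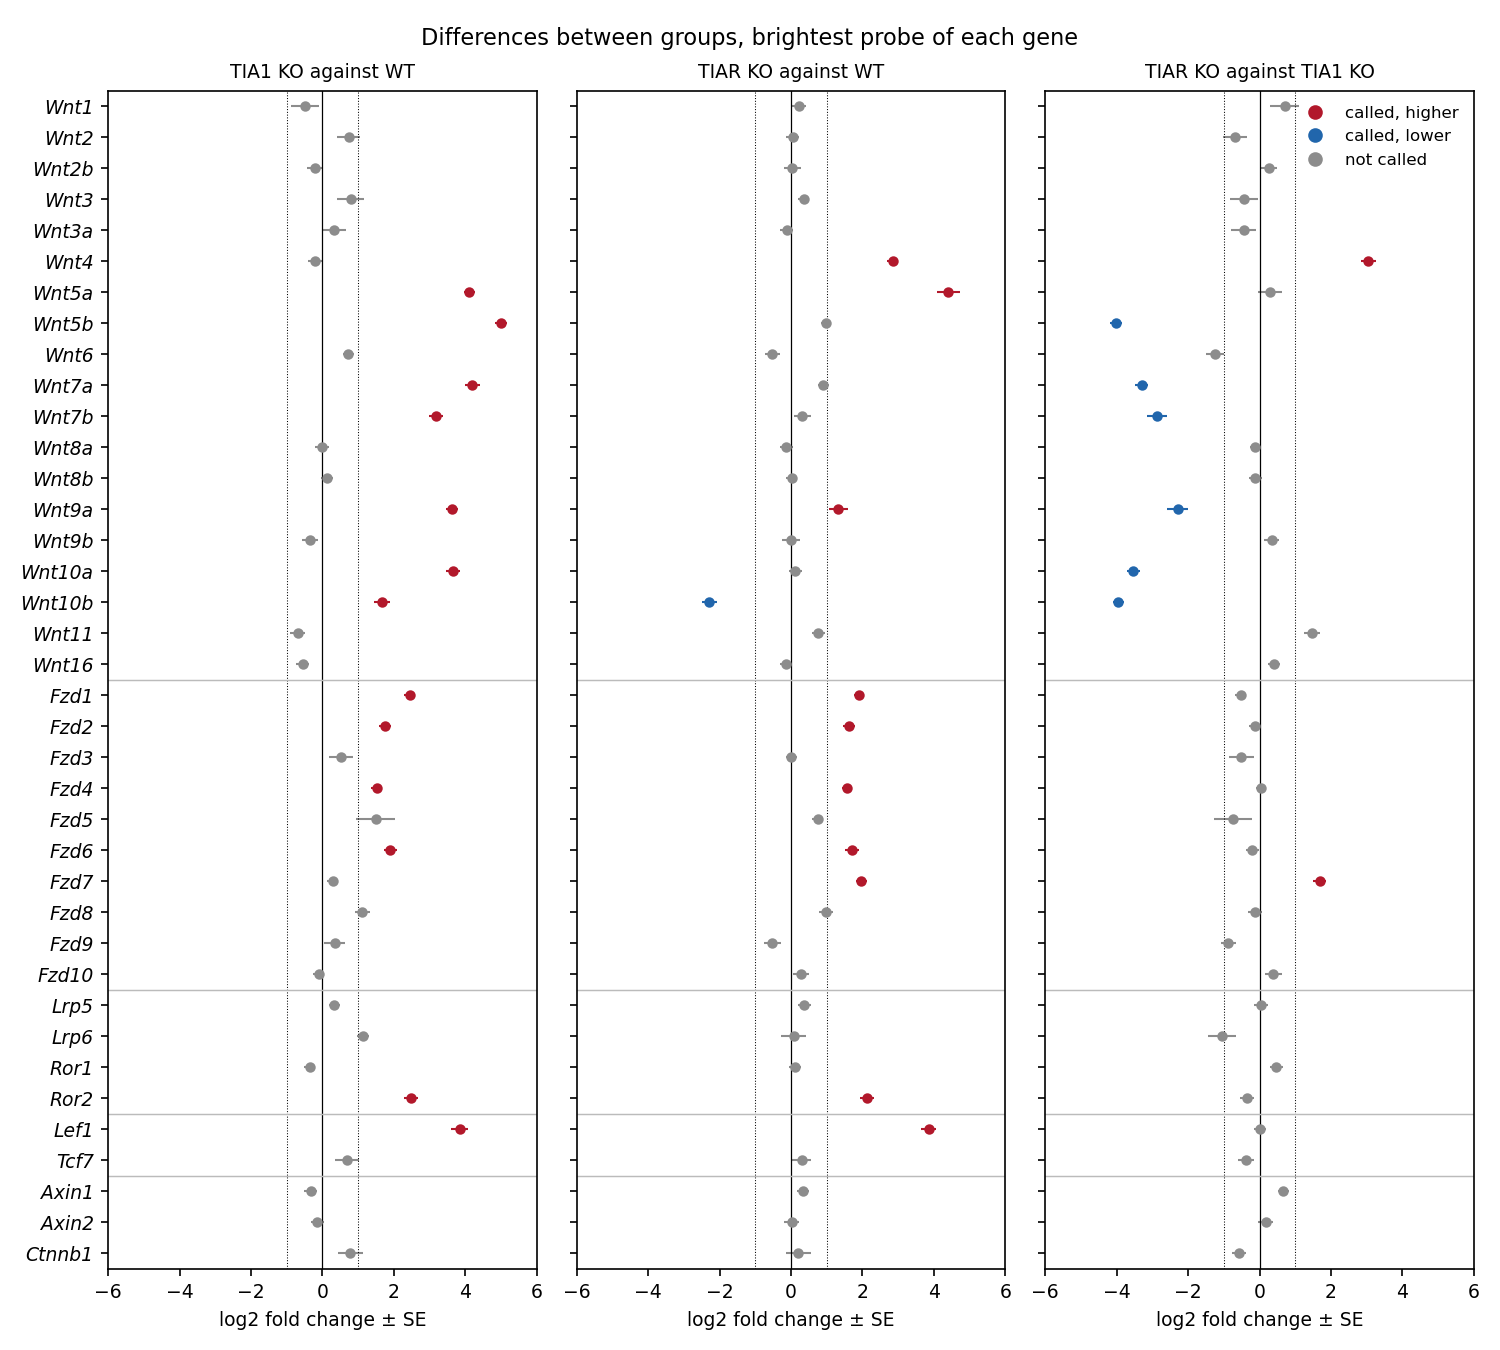
Log2 difference with its standard error (x axis) for the brightest probe of all 38 module genes (y axis) in the 3 comparisons, with dotted lines at the fold threshold and coloured points for called differences. Fzd1, Fzd2, Fzd4, Fzd6, Ror2 and Lef1 are called up against WT in both knock outs, while 7 ligands and Fzd7 are called between the knock outs in the last panel.

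Compared directly, the knock outs differed at 8 module genes, beside the 4.18% of all genes called by brightest probe. Ligands, which are 19 of the 38 genes, were 7 of them, and no test compared ligands with the other roles. Wnt5b, Wnt7a, Wnt7b, Wnt9a, Wnt10a and Wnt10b were lower in TIAR KO than in TIA1 KO and Wnt4 was higher. The remaining one was Fzd7, higher in TIAR KO. No co-receptor, axin or TCF/LEF gene was called. Without TIAR KO 1 or TIAR KO 2 limma lost its calls across the whole array, members included. Without TIA1 KO 2 the calls rose both in the module and over all probes. With the scanner software's processed signal 5 member probes were called, 1 higher and 4 lower, where 1509 of all 55681 probes were called, 125 of them higher.

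Other genes of the pathway were taken from 7 lists covering 88 measured genes, some on more than 1 list. In TIA1 KO 12 were called higher, Dkk3 from 1 array, and 1 fell, in TIAR KO 14 rose and 4 fell, and TIAR KO was higher than TIA1 KO at 3 and lower at 4, beside the 4.51%, 7.18% and 4.18% of all genes called in these comparisons by brightest probe. Their median log2 differences were 0.01, 0.18 and 0.05. Of the 12 secreted antagonists, which bind Wnts or their co-receptors, 5 were called higher in TIA1 KO, of which Dkk3 rests on 1 TIA1 KO array. Sfrp4, also among these 5, was the 1 that rose in TIAR KO as well. It rose by 2.33 ± 0.26 in TIA1 KO, where 1 array was well above background, and by 3.41 ± 0.14 in TIAR KO. Sfrp2 went from 6.39 and 6.40 in WT to 15.13 and 15.42 in TIA1 KO, at least 336-fold (8.88 ± 0.18, adjusted p = 0.0036), and TIAR KO lay below TIA1 KO by -7.94 ± 0.20. Dkk2, not well above background on either WT array, rose in TIA1 KO at least 12.9-fold (3.90 ± 0.21, adjusted p = 0.0076). Dkk3, likewise near background in WT, was called at least 65.9-fold higher in TIA1 KO from 1 array, as the spot on the other was set aside as an outlier, so its spread there was not measured.

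R-spondins amplify Wnt signals by protecting the receptors, and Rspo3 was the one called between the knock outs. It gave 7.54 and 7.77 on the WT arrays, 7.16 and 7.05 on those of TIA1 KO and 11.85 and 11.74 on those of TIAR KO. Only TIAR KO stood apart, with a rise of 4.14 ± 0.16 (adjusted p = 0.00036) and a direct difference from TIA1 KO of at least 19.1-fold (4.69 ± 0.16, adjusted p = 0.0057). Rspo2 rose in both, by 3.30 ± 0.20 and 2.18 ± 0.22. Rnf43, the ligase that removes frizzleds from the surface, fell by 2.13 on the log2 scale in TIAR KO (adjusted p = 0.0083). Over this list of 11 genes 1 rose in TIA1 KO, and 2 rose and 1 fell in TIAR KO. The share of all genes called by brightest probe was 4.51% in TIA1 KO and 7.18% in TIAR KO.

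Of the 14 planar polarity genes and other receptors, 2 rose in TIA1 KO and 3 in TIAR KO. Prickle1, a polarity protein, was near background in WT at 6.53 and 6.65 and reached 12.26 and 12.67 in TIA1 KO and 10.91 and 11.24 in TIAR KO. That is at least 46.9-fold and at least 17.8-fold (5.88 ± 0.21, adjusted p = 0.0040, and 4.48 ± 0.17, adjusted p = 0.00036). Daam2, a formin downstream of Dishevelled, rose in TIAR KO by at least 19.6-fold (4.60 ± 0.15, adjusted p = 0.00022) and was 2.50 ± 0.32 above TIA1 KO. Among 20 cytoplasmic genes, from Dishevelleds to the destruction complex, 0 were called in TIA1 KO by limma (6 had an unadjusted p under 0.05) and 1, Frat2, rose in TIAR KO. For these lists too, 4.51% of all genes were called by brightest probe in TIA1 KO and 7.18% in TIAR KO.

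Nuclear partners changed in both directions: of 16, 2 rose and 1 fell in TIA1 KO, and 4 rose and 1 fell in TIAR KO. Tle1, a co-repressor that binds TCF factors, fell by 1.96 on the log2 scale in TIAR KO (11.95 and 11.99 in WT, 10.01 and 10.01 in TIAR KO, adjusted p = 0.0017) and was 0.63 ± 0.15 above WT in TIA1 KO without a call. Its relative Tle4 rose in TIAR KO by 1.50 ± 0.17 (adjusted p = 0.0080). Ctnnbip1, an inhibitor of β-catenin binding to TCF, fell by 1.37 in TIA1 KO (adjusted p = 0.037). Of 18 genes often listed as transcriptional targets, 2 rose and 0 fell in TIA1 KO and 3 rose and 3 fell in TIAR KO. Beside the counts of both lists, 4.51% of all genes were called by brightest probe in TIA1 KO and 7.18% in TIAR KO. Wisp2, a matricellular protein of the CCN family, went from 6.71 and 6.66 in WT to 12.13 and 11.82 in TIA1 KO and 12.01 and 12.09 in TIAR KO (5.29 ± 0.18, adjusted p = 0.0039, and 5.36 ± 0.14, adjusted p = 0.00019). WT 1 was not well above background for Wisp2, so these sizes rest on a dim WT group. The targets that fell in TIAR KO were Jun (-2.14 ± 0.41, adjusted p = 0.042), Rnf43 and Fosl1 (-1.38 ± 0.24, adjusted p = 0.032). Jun and Fosl1 are AP-1 factors with many inputs other than Wnt.

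**Figure D4:**
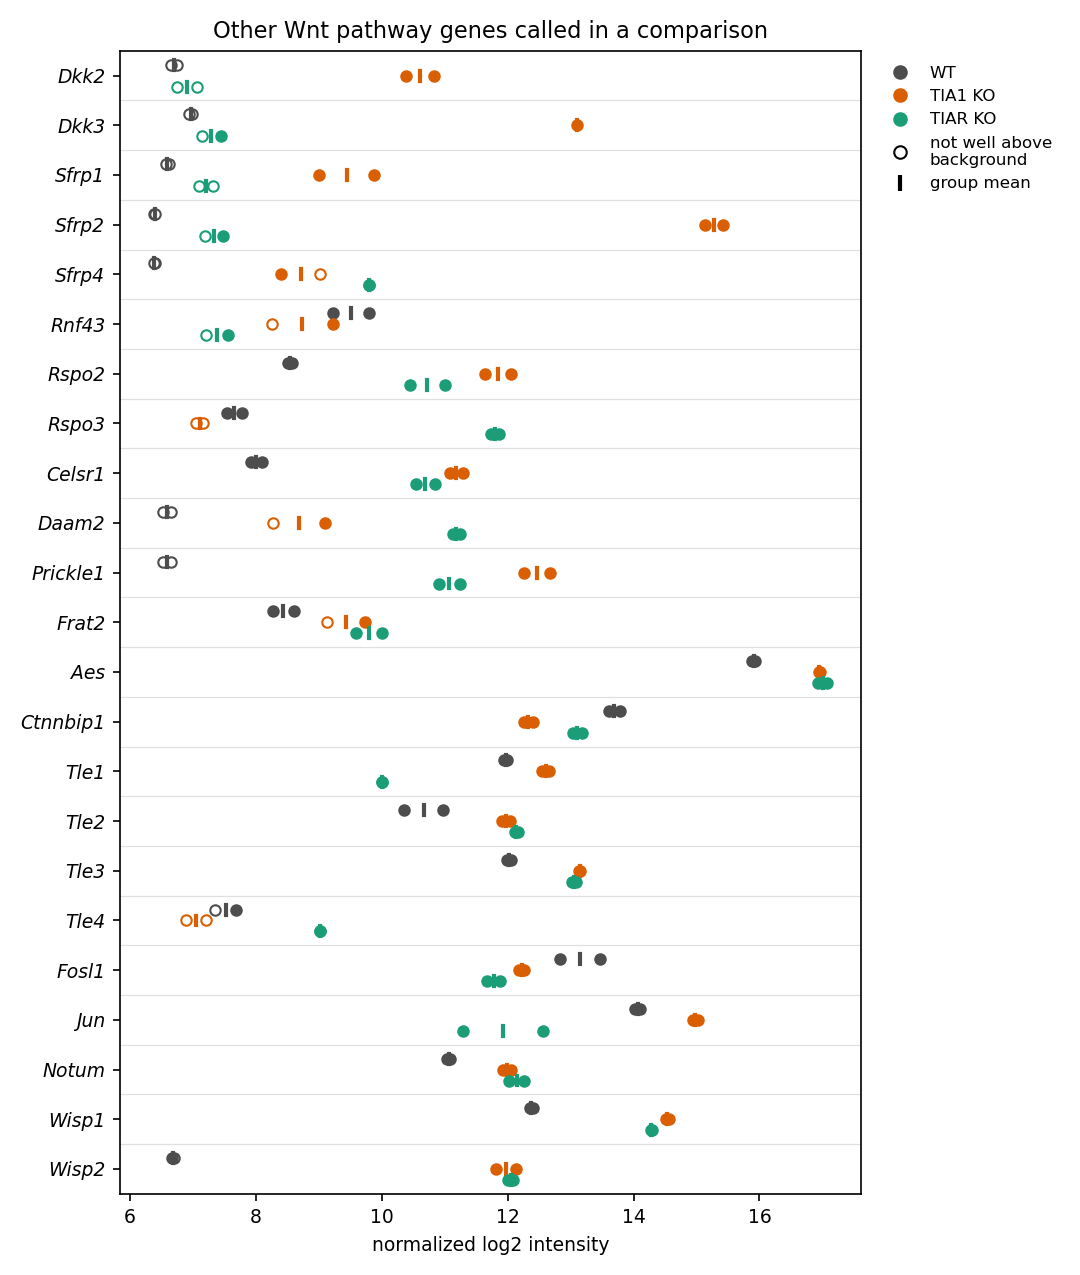
Normalized log2 intensity (x axis) on each array of the other Wnt pathway genes called in at least 1 comparison (y axis, brightest probe), from secreted antagonists at the top to transcriptional targets at the bottom, with filled points well above background, open points not, and ticks at group means. Sfrp2 and Dkk2 stand apart in TIA1 KO, where Dkk3 has 1 point, Rspo3 and Daam2 in TIAR KO, and Prickle1 and Wisp2 in both.

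Most fibroblast markers were called higher in both knock outs. Vim was high on all arrays (17.24 to 17.89), while Lum was not well above background on any and Pdgfra was at 6.37 and 6.40 in WT. Of 10 fibroblast markers 7 rose in TIA1 KO and 8 in TIAR KO, and their summed linear intensity was 322195 and 303783 in WT, 1084680 and 1042920 for TIA1 KO, and 1091320 and 1081910 for TIAR KO. Of 8 epithelial markers, 2 rose in TIA1 KO and 3 in TIAR KO, with Epcam not well above background on 5 of 6 arrays and Krt19 the brightest probe. The epithelial sum was 5797 and 6017 in WT, 10923 and 11563 for TIA1 KO and 8931 and 8244 for TIAR KO. None of 6 endothelial markers was called in either, with Cdh5 not well above background on any array and Kdr the brightest probe. Of 9 leukocyte markers Itgam, the brightest probe, rose in TIA1 KO and Cd14 fell in TIAR KO, with Ptprc not well above background on any array and sums of 11775 and 11183 in WT, 21708 and 19367 for TIA1 KO and 10457 and 10514 for TIAR KO. Of 4 pluripotent markers Utf1 rose in TIA1 KO. Beside these marker counts, 4.51% of all genes were called by brightest probe in TIA1 KO, 7.18% in TIAR KO and 4.18% between the knock outs. The knock outs also differed from each other in these lists, although their fibroblast sums were close. TIAR KO was higher than TIA1 KO for 3 fibroblast markers, Thy1 (at least 131-fold, adjusted p = 0.0046), Dcn (6.48 ± 0.16, adjusted p = 0.0046) and Pdgfra (1.46 ± 0.17, adjusted p = 0.035). It was also higher for the epithelial markers Cdh1 and Krt18 and the leukocyte marker Cd68, and lower for Cd14 and Itgam. The part of these shifts in the Wnt results was not tested. In such bulk RNA, fewer cells of a type and less RNA per cell cannot be told apart.

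Promoters were searched for CTTTGAT, a core sequence bound by TCF/LEF factors, and its reverse complement ATCAAAG, since Lef1 rose in both knock outs. In RefSeq windows of GRCm38.p6 from 250 bases before to 50 after a gene's start, 27 of the 38 genes were found with 35 starts, and 2 windows (5.71%) held a match, against 1225 of 32851 windows (3.73%) for all genes. The matches were in Wnt5b, at 1 of 3 starts, and in Wnt11. The 250 bases before that Wnt5b start are shown, as this was the called gene that held a match, with the motif in capitals.
Wnt5b, GRCm38.p6, chr6:119449387-119449636, minus strand: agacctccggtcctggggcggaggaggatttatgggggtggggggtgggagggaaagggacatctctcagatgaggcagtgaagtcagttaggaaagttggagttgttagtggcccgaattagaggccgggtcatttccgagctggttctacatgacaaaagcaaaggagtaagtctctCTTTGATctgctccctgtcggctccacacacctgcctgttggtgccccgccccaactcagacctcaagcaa
The match lies at offset -71 from the start. A match is a description of the letters and no binding was measured.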

How the data were processed

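RNA from the 6 samples was hybridized to 1-colour Agilent SurePrint G3 mouse arrays. The header of a scanner file names Agilent Feature Extraction 10.7.3.1 and mm9. Intensity values are the deposited scanner output of each array, not normalized. The authors also deposited a normalized log2 table, made per the study's methods by normexp correction, loess and quantile scaling, which was joined by feature number and used as an alternative (correlation 0.997 to 0.999 with the values here). Here the mean signal was corrected by normexp with an offset of 50, converted to log2, loess-normalized against the mean array and quantile-scaled in R 4.3.3 with limma 3.58.1. Outlier and control spots were left out and spots of a probe averaged. The number of arrays limits precision, and no spot was saturated.

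Each comparison was fitted by lmFit and eBayes on its own 4 arrays over all probes, two-sided, with Benjamini-Hochberg adjustment. Of 50 member probes 48 had a RefSeq accession, and all matched the same symbol. The genes given array by array were Ctnnb1, Axin2, Lef1, Tcf7 and called members, up to 12 per comparison. A called member was given where its higher group was well above background. Members near a threshold were added after their values were seen. Of the other pathway genes among the 5 largest rises and falls per comparison, Sfrp2, Rspo3, Prickle1, Tle1 and Wisp2 are given array by array. Members, lists and tests were chosen with earlier results of these data known. Exon and UTR positions of probes and protein sequences were not analysed here. Scripts were tested on simulated data. Figures used Python 3.11.15 and matplotlib 3.10.9.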

Additional observations from a re-analysis of the deposited data

Results flagged for a closer look

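The difference of TIAR KO from WT was unlike that of TIA1 KO at 8 module genes, by a limma test of one knock out against the other, in which the shared WT arrays cancel. TIAR KO minus TIA1 KO was -4.02 for Wnt5b, -3.96 for Wnt10b, -3.54 for Wnt10a, -3.30 for Wnt7a, -2.86 for Wnt7b and -2.29 for Wnt9a on the log2 scale. It was 3.05 for Wnt4 and 1.68 for Fzd7. These are differences between cell lines of separate strains, and the genotype cannot be told apart from the strain.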

How the results depend on the processing

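Member probes called in TIA1 KO (14) became 0 with the scanner software's processed signal, where 0 of all 55681 probes were called by limma. In that setting 30 member probes and 27765 of all probes had an unadjusted p under 0.05, and the median of all probes was 1.98. When a fold over 2 was itself tested, 9 member probes and 440 of all probes were called. Leaving out 1 array gave 0 to 21, with 0 without WT 1 or WT 2 (17 and 18 at an unadjusted p under 0.05) and 21 without TIA1 KO 2. In the comparison of the knock outs (9) the processed signal gave 5, the fold test 5, and leaving out 1 array 0 to 18. In TIAR KO against WT (13) the count stayed between 9 and 15 under all alternatives run. Where 1 array was left in a group, its spread was taken from the rest. In TIA1 KO against WT the calls over all probes were also lost without WT 1 or WT 2. They rose over all probes without TIA1 KO 2. Between the knock outs they were lost over all probes without TIAR KO 1 or TIAR KO 2, and rose without TIA1 KO 2. Those swings in the member counts were thus not particular to the module. The cause of these changes was not tested.

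Replicate numbers did not pair the samples (correlations of deviations 0.08, 0.03 and -0.07). With the replicate block limma called 10, 13 and 0 member probes in the 3 comparisons, beside 671, 3308 and 0 of all 55681 probes. In the last, 18 member probes and 10684 of all probes had an unadjusted p under 0.05.

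No called difference of a named member turned its sign. Uncalled ones did. In TIA1 KO against WT the processed signal gave Axin2 3.004 and Wnt4 0.30, and common median scaling Tcf7 -0.14, Ctnnb1 -0.82 and Fzd7 -1.19 (the last called, adjusted p = 0.048). In TIAR KO against WT Wnt10a gave -0.07 in the authors' table, -0.055 without loess and -0.074 with common median scaling, and Ctnnb1 -0.26 with the latter. Leaving out 1 array there gave ranges of -0.028 to 0.27 for Wnt10a, -0.27 to 0.67 for Ctnnb1, -0.061 to 0.65 for Tcf7 and -0.19 to 0.23 for Axin2. Between the knock outs the processed signal (median of all probes -1.85) gave Fzd4 -0.051, Tcf7 0.25, Lef1 -0.24 and Axin2 -2.46. Common median scaling (median 0.63) gave Fzd2 0.99, Fzd6 0.90, Tcf7 0.26, Ctnnb1 0.56, Fzd1 0.59 and Ror2 0.72. Lef1 gave -0.14 in the authors' table and -0.13 without loess. Leaving out 1 array there gave -0.12 to 0.14 for Lef1, -0.16 to 0.75 for Wnt5a, -0.25 to 0.0054 for Fzd2 and -0.042 to 0.38 for Axin2. Probes near background have no dependable order, and values there are bounds.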
